A study of Homo sapiens with 6 samples.

Results

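The 10 genes described here encode the subunits of the transcription factor NF-kB and a set of its feedback targets. They were taken by symbol from the deposited gene table, as NFKB1, NFKB2, REL, RELA, RELB, NFKBIA, TNFAIP2, TNFAIP3, TRAF1 and BIRC3. All 10 were present among the 18539 genes of the table, and all 10 passed the filter on low values. The samples were total RNA from A375, a human malignant melanoma line with an activating BRAF mutation, and all cells had been infected with a lentiviral pLKO.1 vector and selected with puromycin. Cells in 3 libraries carried a control short hairpin RNA (shControl), and cells in the other 3 carried a hairpin against the coding region of MMP9 (shMMP9), which encodes matrix metalloproteinase 9, a secreted gelatinase. The labels give 1 hairpin sequence against MMP9 and no sequence for the control, and they do not say whether the replicates were separate cultures. The p-values may therefore rest on technical spread. The series title ties MMP9 to proteolysis of histone H3 tails and to a melanoma transcription program. The comparison addresses how transcripts differ once MMP9 is depleted.

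NF-kB dimers are built from 5 subunits that share the Rel homology domain, which binds DNA and joins the subunits. In resting cells most dimers are held in the cytoplasm by inhibitor proteins such as IkBalpha, the product of NFKBIA. Signals from cytokine and Toll-like receptors lead to destruction of the inhibitor and let dimers of p50 (from NFKB1) with RELA enter the nucleus, while a slower branch through the kinase NIK processes p100 (from NFKB2) to p52, which pairs with RELB. Dimers switch on inflammatory genes and also genes that shut the pathway down again, among them NFKBIA and TNFAIP3. In melanoma the pathway is known for its output of cytokines and survival factors.

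Promoter sequences of the members were examined for the NF-kB consensus decamer, the sequence to which dimers bind, since the feedback between the factor and its own genes runs through such elements. RefSeq promoter windows on GRCh38.p14, from 250 bases before to 50 bases after each annotated start, were held for 9 of the 10 members, with 15 windows in all, but not for RELB. The consensus, searched on both strands, was found in 6 of the 9 members. Over all genes with a window 13.3% held a match in at least 1 window, and over the tested genes with a window 17.4%. The matches below are shown because they belong to subunit and feedback genes whose values are compared below, some higher and some lower in shMMP9. Capitals mark the matching decamer, and each line reads 5′ to 3′ on the strand of the gene.
NFKB1 (chr4:102501300-102501329, plus strand): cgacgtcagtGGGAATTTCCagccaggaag
REL (chr2:60881517-60881546, plus strand): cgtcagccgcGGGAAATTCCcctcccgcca
NFKB2, upstream start (chr10:102394461-102394490, plus strand): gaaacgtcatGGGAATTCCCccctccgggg
NFKB2, downstream start (chr10:102395674-102395703, plus strand): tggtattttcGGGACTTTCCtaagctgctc
NFKBIA (chr14:35404811-35404840, minus strand): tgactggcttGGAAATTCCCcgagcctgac
TNFAIP3, farther match (chr6:137867182-137867211, plus strand): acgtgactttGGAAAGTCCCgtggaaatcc
TNFAIP3, nearer match (chr6:137867194-137867223, plus strand): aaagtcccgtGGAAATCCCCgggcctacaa
BIRC3, farther match (chr11:102317275-102317304, plus strand): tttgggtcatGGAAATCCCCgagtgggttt
BIRC3, nearer match (chr11:102317339-102317368, plus strand): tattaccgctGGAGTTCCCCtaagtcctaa

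The first base of the match lay 49 bases before the start of NFKB1, 47 before that of REL and 81 before that of NFKBIA. The pair in TNFAIP3 lay 67 and 55 bases before the start, and the pair in BIRC3 lay 199 and 135 bases before it. In NFKB2 the printed matches lay 107 bases before one annotated start and 21 before another, and further matches there are not printed. The most upstream window of NFKB2 (102393860 to 102394159) held no match. Upstream and downstream in its labels above refer only to its later windows, which held matches. The downstream window of NFKB1 (102501684 to 102501983) held no match either. The REL match, and the first NFKB2 match, each overlap another match shifted by 1 base. No decamer was found in the 3 windows of TRAF1, the 2 windows of RELA or the window of TNFAIP2, which says only that these letters are not in those windows. A match describes the letters and does not show that a dimer binds there in these cells.

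Levels below are gene counts scaled by the authors to a common upper quartile (scaled counts). Fold changes compare mean log2(scaled count + 1) in shMMP9 with that in shControl, as fitted by limma. P-values were adjusted by Benjamini-Hochberg across the 17194 tested genes, with a threshold of 0.05. The libraries held 21854113 to 28005536 estimated reads over the listed genes, and each member was backed by between 420 (REL) and 8657 (NFKB2) of them per library. MMP9 itself stood at 26.1, 24.3 and 28.7 in shControl replicates 1 to 3 and at 16.2, 14.6 and 17.1 in shMMP9 replicates 1 to 3, so that every library labelled shMMP9 held less of it (adjusted p = 1.25e-05, limma). Among the shControl libraries replicate 1 stood farthest from the others (chi-square per gene of 14.2 and 9.72, against 4.02 between replicates 2 and 3), and without it every member kept its call. Genes with symbols starting with MT- made up 1.64 to 1.79% of estimated reads in shControl and 0.617 to 0.708% in shMMP9, and the part of this difference in the members' values was not tested. Of the 12 melanoma identity markers 8 were tested, of which 4 rose and 3 fell. SOX10 reached 378 ± 18.4 in the shControl libraries and 785 ± 40.6 in the shMMP9 libraries (SD, n = 3), MITF was present at 35.5 ± 2.48 and 27.7 ± 0.876, and TYR and DCT were not listed in the table. The pigment genes MLANA (0.102 and 0.392) and TYRP1 (0.350 and 0.0703) did not pass the filter, and PMEL had means of 1.70 and 1.76. The receptor kinase gene AXL went from 661 ± 58.4 to 283 ± 1.65, and ERBB3, another receptor gene, from 84.1 ± 4.27 to 349 ± 2.84.

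Of the 10 members 3 rose and 5 fell. The background is high, since 25.0% of all tested genes were called higher and 32.5% lower, and the groups of 3 libraries did not overlap for 62.7% of them, against 7 of the 10 members. Wholly higher shMMP9 libraries were found for 2 members and 27.6% of tested genes, and wholly lower ones for 5 members and 35.1%. The counts alone therefore say little about these genes. The sizes of the changes were uneven. TRAF1 rose and TNFAIP2 fell by more than 2-fold on the log2 scale used, as did 8.17% of tested genes in either direction, TNFAIP3 fell by nearly as much, and the log2 fold changes of the 5 subunits and BIRC3 lay between -0.37 and 0.27. The median log2 fold change was -0.19 over the members and -0.05 over all tested genes. Without regard to sign, the median over all tested genes was 0.28.

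**Figure D1:**
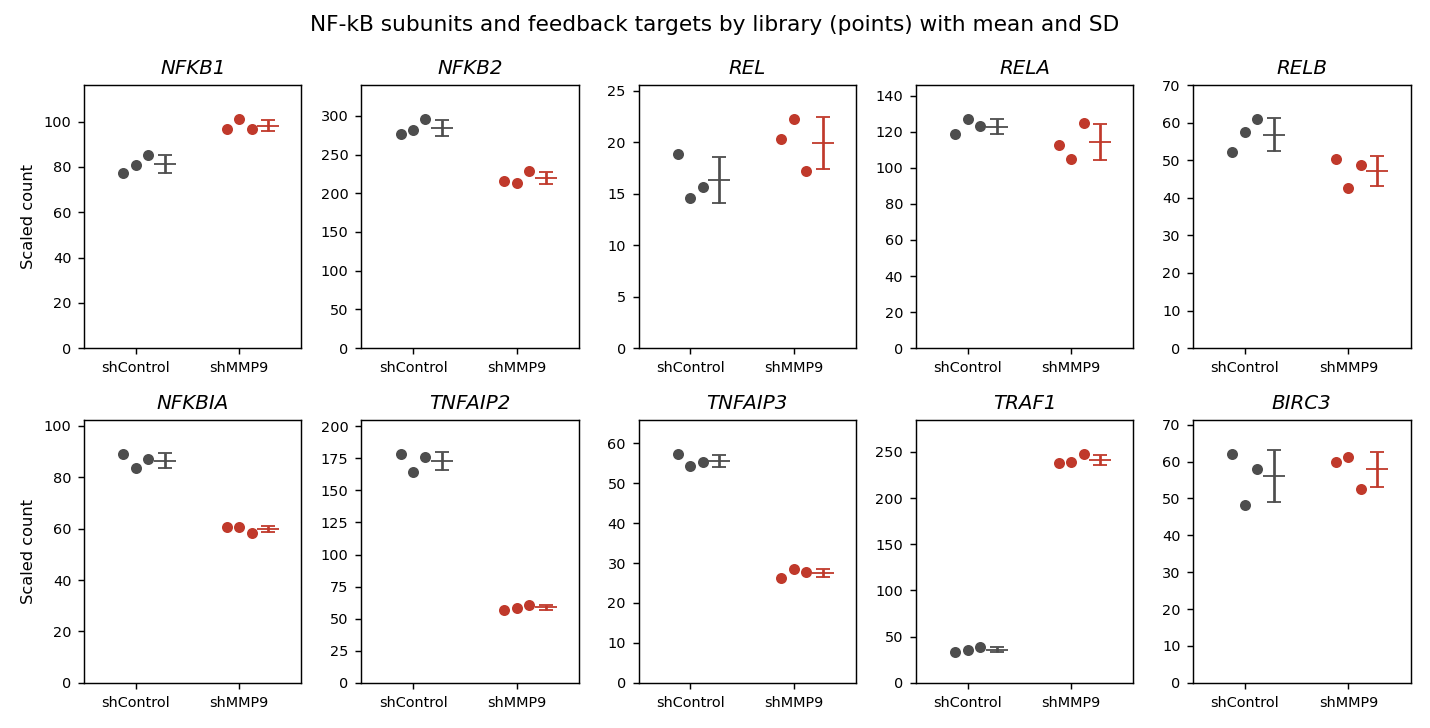
Scaled count of each member (vertical axes start at 0 and differ between panels) in the 3 shControl and 3 shMMP9 libraries, each point being 1 library, with the mean and SD beside the points. The shMMP9 points of TRAF1 lie far above those of shControl, those of TNFAIP2, TNFAIP3, NFKBIA, NFKB2 and RELB lie below, and the points of RELA, REL and BIRC3 overlap.

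**Figure D2:**
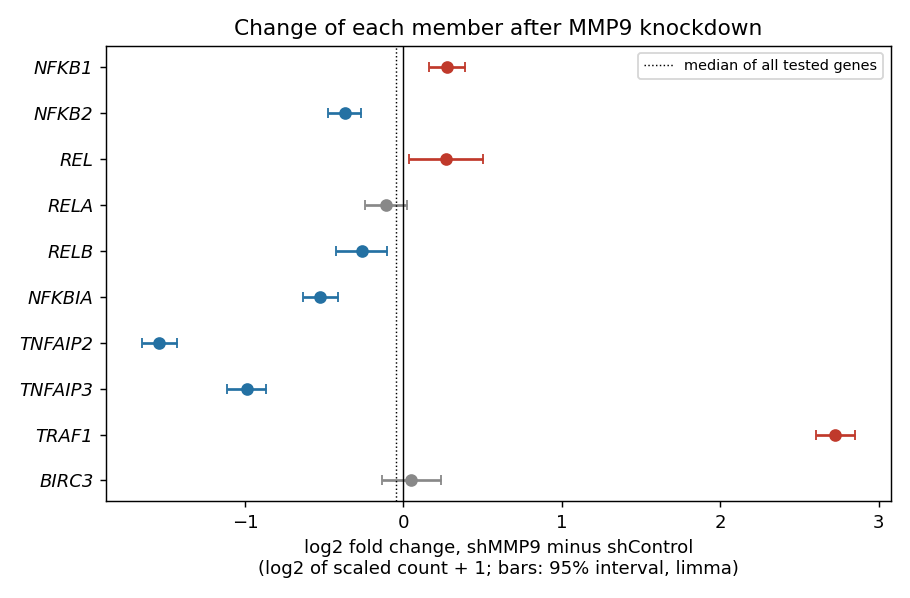
Log2 fold change of each member (horizontal axis, log2 of scaled count + 1, shMMP9 minus shControl) with its 95% interval from limma, in red where higher, blue where lower and grey where not called; the dotted line marks the median of all tested genes. TRAF1 stands alone at 2.73, while the 5 subunits lie between -0.37 and 0.27.

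The subunit genes of the main signalling branch moved in small steps. NFKB1, which encodes the precursor p105 and its product p50, lies on chromosome 4 (102501329 to 102617302, plus strand, GRCh38, GENCODE release 29, the source of all gene positions here). Its level was 77.2, 81.0 and 85.2 in the shControl libraries and 96.9, 101 and 96.9 in the shMMP9 libraries. All shMMP9 libraries were above all shControl libraries, and NFKB1 rose by 0.27 on that scale (SE 0.0517, limma adjusted p = 0.000513). RELA, the transactivating partner of p50, lies on chromosome 11 (65653596 to 65663094, minus strand) and stood at 119, 127 and 123 in shControl and at 113, 105 and 125 in shMMP9. The groups overlapped, and the log2 fold change of -0.11 did not pass the test (95% interval -0.24 to 0.02, adjusted p = 0.148, limma). Without shMMP9 replicate 3, the highest of its group, RELA was called lower, at -0.17 (adjusted p = 0.0255, limma). A noncoding gene on the opposite strand, AP001362.2, overlaps RELA at a low level (0.983 ± 0.106 and 1.85 ± 0.381, SD, n = 3).

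REL, which encodes c-Rel, a subunit best known from lymphocytes, was the weakest member. It lies on chromosome 2 (60881521 to 60931610, plus strand) and stood at 18.9, 14.6 and 15.7 in shControl and at 20.3, 22.2 and 17.2 in shMMP9. The lowest shMMP9 library was below the highest shControl library, and the log2 fold change of 0.27 passed narrowly (SE 0.108, adjusted p = 0.0474, limma). The call was lost without shControl replicate 2 (adjusted p = 0.165, limma) or 3 (adjusted p = 0.132, limma) and without shMMP9 replicate 1 (adjusted p = 0.127, limma) or 2 (adjusted p = 0.197, limma). A noncoding gene on the same strand, AC010733.2, overlaps REL and was listed with its own counts, with a mean of 4.04 ± 2.00 (SD, n = 3) over the shControl libraries and 1.66 ± 1.73 over the shMMP9 libraries. It fell by 1.04 (adjusted p = 0.0391, limma), against the direction of REL. Its groups overlapped, at 1.73 to 5.25 in shControl and 0.195 to 3.57 in shMMP9. The sum of both genes, taken after these values were seen, was 16.3 to 24.1 in shControl and 20.8 to 22.4 in shMMP9, with overlapping groups, so the rise of REL is uncertain.

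The subunit genes of the slower branch were both lower. NFKB2, which encodes p100 and its product p52, lies on chromosome 10 (102394110 to 102402529, plus strand). Its level was 276, 281 and 296 in shControl and 216, 214 and 229 in shMMP9. The groups did not overlap, and NFKB2 fell by 0.37 (SE 0.0487, adjusted p = 2.34e-05, limma). RELB, the usual partner of p52, lies on chromosome 19 (45001430 to 45038198, plus strand) and stood at 52.1, 57.5 and 60.9 in shControl and at 50.2, 42.5 and 48.7 in shMMP9. The shMMP9 libraries were all lower, although the nearest pair of libraries was close together. RELB fell by 0.26 (SE 0.0736, adjusted p = 0.00747, limma). NFKB1 and NFKB2 therefore went in opposite directions, with 95% intervals of 0.16 to 0.39 and -0.48 to -0.27. Changes of this size were common. A larger log2 fold change in either direction was found for 50.5% of tested genes for NFKB1, 38.2% for NFKB2 and 51.8% for RELB.

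Divided by exon length, the subunits could be set against each other within a library. NFKB2 held the highest share of the summed subunit level per kilobase of exon in every library, with 53.9, 52.7 and 53.5% in shControl and 47.1, 48.3 and 47.8% in shMMP9. NFKB1 held 10.8, 10.9 and 11.04% in shControl and 15.1, 16.3 and 14.5% in shMMP9. For both genes the shares of the 2 groups did not overlap, in opposite directions. RELA held 18.9% ± 0.633 in shControl and 20.3% ± 0.978 in shMMP9, and RELB 15.7% ± 0.651 and 15.1% ± 0.988 (SD, n = 3). REL made up 1.05% ± 0.178 and 1.48% ± 0.243. These shares are descriptions with no test, and they depend on the exon length assigned to each gene.

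**Figure D3:**
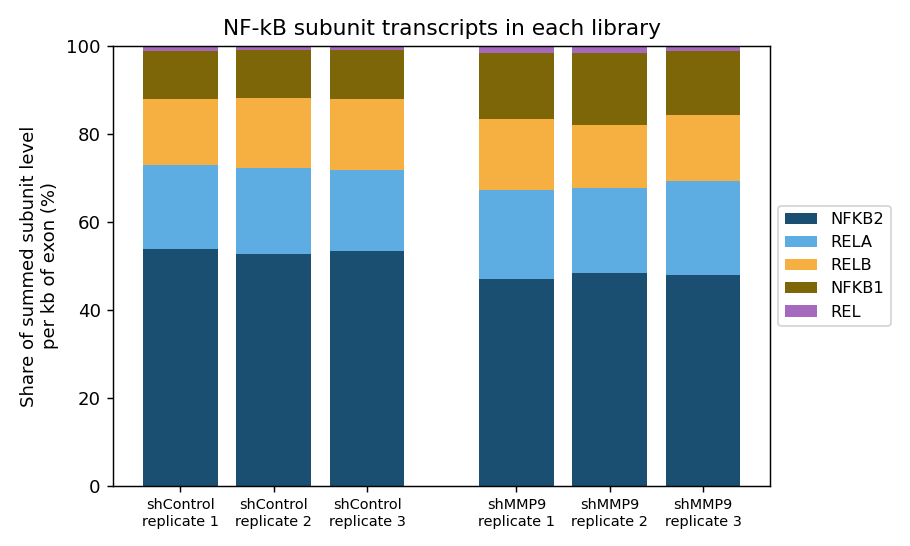
Share of each subunit in the summed level of the 5 subunits per kilobase of exon (vertical axis, percent) in each of the 6 libraries, 1 bar per library. The NFKB2 part is smaller and the NFKB1 part larger in all 3 shMMP9 bars than in the shControl bars.

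The inhibitor and the brake of the pathway were both lower. NFKBIA encodes IkBalpha, which binds dimers in the cytoplasm and is itself induced by them, and lies on chromosome 14 (35401511 to 35404749, minus strand). Its level was 89.0, 83.4 and 87.0 in shControl and 60.6, 60.6 and 58.3 in shMMP9. The 2 groups were well apart, and it fell by 0.52 (SE 0.0502, adjusted p = 1.18e-06, limma), to 0.692 times the shControl mean. A larger log2 fold change in either direction was found for 24.9% of tested genes. TNFAIP3 encodes A20, a ubiquitin-editing enzyme that ends signalling from TNF and Toll-like receptors, and lies on chromosome 6 (137867188 to 137883312, plus strand). It stood at 57.3, 54.4 and 55.3 in shControl and at 26.3, 28.5 and 27.7 in shMMP9. No shMMP9 library came near the shControl range, and it fell by 0.99 (SE 0.0581, adjusted p = 9.25e-09, limma). For TNFAIP3 the share of tested genes with a larger change in either direction was 8.32%. An antisense gene, AL357060.1, overlaps TNFAIP3 at a level of 1.07 ± 0.178 in shControl and 0.560 ± 0.225 in shMMP9 (SD, n = 3). The strand setting of the counting is not given in the sources used here, so reads of this pair cannot be told apart. The same holds for RELA and AP001362.2.

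TNFAIP2, a gene induced by TNF whose product has been linked to membrane protrusions, had the largest fall among the members. It lies on chromosome 14 (103123442 to 103137439, plus strand), and stood at 178, 165 and 176 in shControl and at 56.6, 58.6 and 61.0 in shMMP9. The shMMP9 mean was 0.340 times that of shControl, which on the log2 scale was -1.54 (SE 0.0516, adjusted p = 3.57e-11, limma), and 3.12% of tested genes had a larger log2 fold change in either direction.

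TRAF1 went the other way. It encodes an adaptor of TNF receptors that is itself induced by NF-kB and binds the cIAP ubiquitin ligases, and it lies on chromosome 9 (120902393 to 120929173, minus strand). Its level was 33.2, 35.4 and 38.5 in shControl and 238, 239 and 248 in shMMP9. The 3 shMMP9 libraries were close to each other and the ratio of the group means was 6.77, or 2.73 as a log2 difference (SE 0.0569, adjusted p = 7.54e-13, limma). This was the rise of rank 14 among the 17194 tested genes. The 3 nearest listed genes on each side on chromosome 9, all 6 of them tested and looked at after these values were seen, had log2 fold changes of 0.13 to 0.53, with the complement gene C5 highest. PHF19, C5, CNTRL and RAB14 were called higher, as were 25.0% of all tested genes, and CUTALP and PSMD5 were not called.

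BIRC3, the last member, encodes cIAP2, a ubiquitin ligase that protects cells from TNF-induced death and restrains NIK. It lies on chromosome 11 (102317450 to 102339403, plus strand) and stood at 62.0, 48.2 and 58.0 in shControl and at 59.8, 61.3 and 52.5 in shMMP9. The groups overlapped over most of their range, with a log2 fold change of 0.05 that did not pass (95% interval -0.14 to 0.23, adjusted p = 0.648, limma). Its sign turned without shControl replicate 2, to -0.05 (adjusted p = 0.552, limma). BIRC2, the neighbouring homologue that encodes cIAP1, stood at 78.0, 77.5 and 74.9 in shControl and at 95.5, 94.0 and 94.5 in shMMP9, and rose by 0.30 (adjusted p = 0.000115, limma). The difference between the changes of BIRC2 and BIRC3 was not tested.

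Per kilobase of exon, the order of the members differed between the groups. In shControl the scaled count per kilobase was highest for NFKB2 (63.4 ± 2.23, SD, n = 3), followed by NFKBIA (36.4 ± 1.19), TNFAIP2 (34.4 ± 1.46), RELA (22.5 ± 0.766), RELB (18.7 ± 1.47), NFKB1 (12.97 ± 0.635), TNFAIP3 (11.02 ± 0.298), BIRC3 (7.46 ± 0.945), TRAF1 (5.53 ± 0.411) and REL (1.24 ± 0.170). NFKBIA and TNFAIP2 were the neighbours in this order whose libraries overlapped. In shMMP9 NFKB2 was again first, at 49.0 ± 1.80 per kilobase, and TRAF1 came next at 37.4 ± 0.828. NFKBIA followed at 25.2 ± 0.552, then RELA at 20.9 ± 1.81, NFKB1 at 15.7 ± 0.383 and RELB at 15.5 ± 1.34, the last pair with overlapping libraries. TNFAIP2 stood at 11.7 ± 0.433, BIRC3 at 7.70 ± 0.628, TNFAIP3 at 5.45 ± 0.216 and REL at 1.51 ± 0.192. By this length TRAF1 was ninth of 10 in shControl and second in shMMP9. With the longest annotated transcript as length, an order computed after seeing the data, it was again ninth in shControl (5.64 ± 0.419), but in shMMP9 it could not be parted from NFKBIA (38.2 ± 0.844 against 38.4 ± 0.841) or from RELA (35.9 ± 3.11), whose libraries overlapped with it. By that length RELA (38.6 ± 1.31) also came before TNFAIP2 (36.9 ± 1.57) in shControl, with overlapping libraries.

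The wider pathway was read from 6 lists by role, which held 114 further genes of the table, 112 of them tested. Of these 25 rose and 55 fell, which is 22.3 and 49.1%, against 25.0 and 32.5% of all tested genes, the shares against which each list below is also to be read. The median log2 fold change was -0.20 against -0.05 over all tested genes. The lists were chosen with earlier results of these data known, which limits this comparison, and they were not tested as sets. MMP9 itself is among the 55 that fell. The shares over all genes also depended on the scaling, as given at the end. In bulk RNA, fewer cells of a kind and less RNA per cell cannot be told apart.

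Among 14 tested receptors 5 rose and 3 fell. TLR4, the receptor for bacterial lipopolysaccharide, rose from 33.3 ± 1.85 to 157 ± 5.75 (SD, n = 3, log2 fold change 2.21, adjusted p = 3.14e-12, limma). TNFRSF1A, the main TNF receptor, rose by 0.82, and IL1RAP, the shared chain of the interleukin 1 receptor, by 0.58. CD40, a receptor that feeds the slower branch, fell by 0.81.

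Of 7 tested ligands 5 fell, and TNF and TNFSF13B did not pass the test. IL1B, an inflammatory cytokine, went from 136 ± 11.01 to 9.79 ± 0.391 (SD, n = 3), and IL1A, its close relative, fell by 1.49. LTB, a ligand of the slower branch, went from 8.69 ± 0.660 to 0.726 ± 0.0864, and TNFSF12, which encodes TWEAK, fell by 0.75. With a pseudocount of 4 the log2 fold changes were -1.42 for LTB, against -2.49 with 1, and -0.41 for TNFSF12. TNF itself was barely present, at 0.682 to 1.34 in shControl and 0.333 to 0.793 in shMMP9, and its log2 fold change of -0.37 did not pass (adjusted p = 0.0647, limma).

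Adaptors, ligases and kinases changed in both directions. Among 20 adaptors and ligases 5 rose and 7 fell, close to the shares over all genes. MYD88, the adaptor of Toll-like and interleukin 1 receptors, rose by 0.68 and RIPK1, the kinase scaffold at TNF receptors, by 0.60. RIPK2, which serves the NOD receptors, fell by 0.85 and RBCK1, a subunit of the linear ubiquitin ligase, by 0.46. Among 11 kinases and their partners 3 rose and 5 fell. IKBKB, the kinase that marks IkBalpha for destruction, rose by 0.42 and TAB3, a partner of the kinase TAK1, by 0.26. IKBKE, a related kinase, fell by 0.45 and MAP3K14, which encodes NIK, by 0.40.

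Of 19 other inhibitors 6 rose and 9 fell. TNIP1, a partner of A20, fell from 250.2 ± 3.59 to 110.2 ± 0.753 (SD, n = 3, log2 fold change -1.18, adjusted p = 9.2e-11, limma), in the same direction as TNFAIP3. NFKBIZ, a nuclear member of the inhibitor family that also activates some targets, fell by 1.49, and ZC3H12A, a nuclease that degrades cytokine messages, also fell by 1.49. PDLIM2, a ligase for RELA, fell by 0.97. Among the close relatives of NFKBIA, NFKBIB rose by 0.68 while NFKBIE fell by 0.39.

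Of 41 other target genes 26 fell and 6 rose, or 63.4 and 14.6%, with a median log2 fold change of -0.43. MMP9, the gene the hairpin targets, is one of those that fell. The cytokine gene IL6 went from 51.1 ± 4.46 to 1.19 ± 0.314 and the chemokine gene CCL3 from 21.2 ± 2.46 to 0.254 ± 0.0426 (SD, n = 3). CCL3 has near-identical copies in the genome, so its level is uncertain, and its log2 fold change of -4.14 was -2.56 with a pseudocount of 4 and -6.28 with limma-voom. NUAK2, a stress-activated kinase, fell by 2.26, and SOD2, the mitochondrial superoxide dismutase, fell by 1.32. Outside the naming rule and chosen after their values were seen, PTGS2, which encodes cyclooxygenase 2, rose by 1.45 and BCL2A1, a survival factor, by 1.10, so that TRAF1 was not the one target gene that rose.

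**Figure D4:**
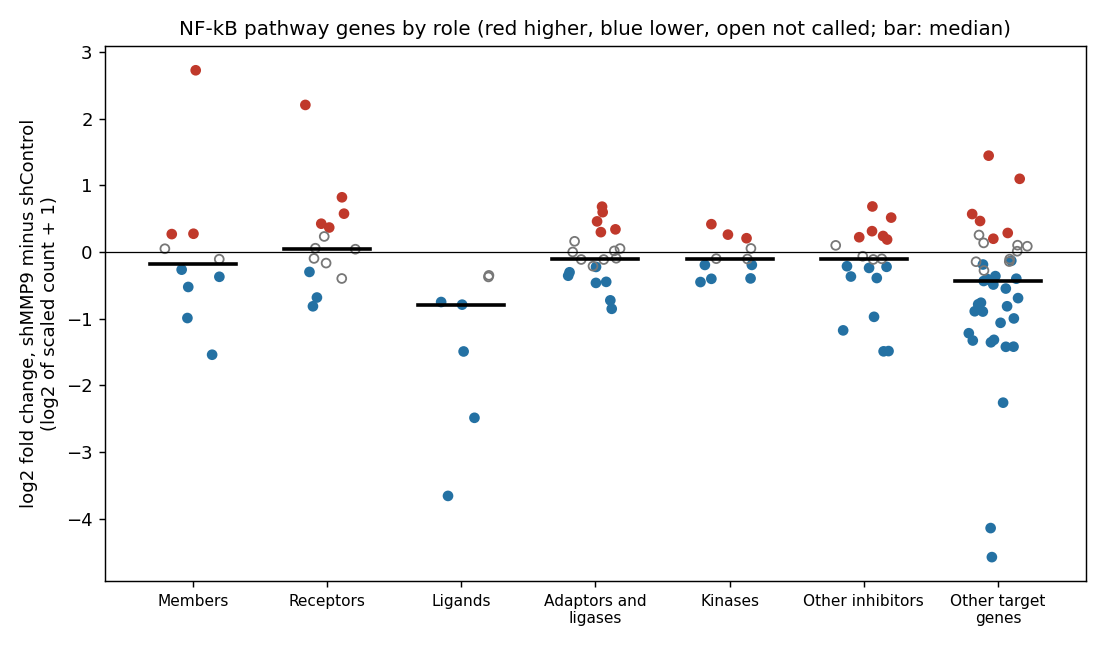
Log2 fold change (vertical axis, log2 of scaled count + 1, shMMP9 minus shControl) of every tested gene of the 10 members and of the 6 pathway lists, 1 point per gene, red where higher, blue where lower and open where not called, with a bar at each median. The ligands and the other target genes lie mostly below 0, with medians of -0.79 and -0.43, while the adaptors, kinases and receptors spread to both sides.

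Markers of other cell types were read because leukocytes and stromal cells also express members. Among the leukocyte markers, PTPRC, CD3E, ITGAM and AIF1 were not listed in the table, and 2 of 6 tested ones rose and 2 fell. Their summed level was 778 to 812 in shControl and 1597 to 1628 in shMMP9, most of it from CD74 (671 ± 7.93 and 1516 ± 17.5, SD, n = 3). For the 10 fibroblast markers, with 1 rising and 6 falling of 7 tested, it was 70.0 to 74.99 and 39.9 to 44.3. For the 8 endothelial markers, with 2 rising and 2 falling of 7, it was 56.8 to 65.9 and 23.3 to 27.1, most of it in shControl from TIE1 (49.9 ± 3.41 and 4.56 ± 0.617), and CLDN5 was not listed. Without TIE1, left out after seeing the data, the endothelial sum was higher in shMMP9, from 10.3 to 12.6 in shControl to 19.4 to 22.01 in shMMP9. Most of that sum came from KDR (6.44 ± 0.414 in shControl and 16.1 ± 0.537 in shMMP9), while CDH5 fell (0.769 ± 0.217 and 0.110 ± 0.0646). For the 10 keratinocyte markers, with 2 rising and 1 falling of 3, the summed level was 83.4 to 94.8 and 137 to 147. Most of it came from KRT10 (71.6 ± 6.12 in shControl and 111.6 ± 3.73 in shMMP9). KRT5 (0.370 and 0.0367) did not pass the filter, and KRT1, TP63, DSG3, IVL, CDH1 and PKP1 were not listed. The part of these genes in the members' changes was not tested.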

How the data were processed

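Total RNA was sequenced from 3 shControl and 3 shMMP9 libraries of A375 cells. STAR 2.6.1d, Partek and hg38 are named in the submitters' processing notes. The sources used here do not give how reads were counted, or with which annotation and strand setting. Deposited values are on a log2 scale, as log2(scaled count + 1), with the same upper quartile in every library. Multiples of the smallest step gave estimated reads, 64.5 to 67.8% of them whole within 0.01, so count models were not used. Among the fits, only the limma-voom alternative took these estimates as input. Reads divided between genes leave close homologues uncertain.

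The limma 3.58.1 test (R 4.3.3, variance trend) was run on the deposited log2 values of the 17194 genes that reached, in 3 libraries, a level worth 10 reads at median depth and had 15 reads in all, and was tested on simulated data. No pair of replicates agreed within sampling noise (chi-square per gene 2.51 to 14.2). Members and lists were chosen with earlier results of these data known. The text names every member, MMP9 and the 4 genes of each pathway list with the smallest adjusted p, and others by role. Exon lengths came from GENCODE release 29, promoters from RefSeq. Alternatives were other scalings, pseudocounts of 0.25 and 4, no filter, no variance trend, limma-voom, a threshold of 0.01, a replicate block, the longest transcript as length and each library left out.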

Additional observations from a re-analysis of the deposited data

How the results depend on the processing

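The 6 counts of genes, members and pathway genes stayed within 1.5 times their value in all 90 comparisons with an alternative. That limit is wide for the small counts of members, which ran from 2 to 3 for those called higher and from 5 to 6 for those called lower. The balance of rises and falls over all genes depended on the scaling. With median-of-ratios scaling 4949 genes rose and 4946 fell, against 4304 and 5584 as deposited. With total-read scaling 4988 rose and 4898 fell. The median log2 fold change over all tested genes was -0.0023 and 0.0016 in turn. Pathway genes called lower were 47 and 46, and those called higher 26 under both. The alternatives were followed for 35 named genes, namely the members, MMP9 and the 4 genes of each pathway list with the smallest adjusted p. Of these, 32 kept direction and side of the threshold under all 15 alternatives, and REL, RELA and BIRC3 did not. Other genes named in the text, such as BIRC2, NFKBIB and PTGS2, were not followed in this way. The REL call also ended with a pseudocount of 4 (adjusted p = 0.0545, limma), without a variance trend (adjusted p = 0.0988) and at a threshold of 0.01, and its log2 fold change ran from 0.19 to 0.37 with single libraries left out. That of RELA ran from -0.17 to -0.05 and that of BIRC3 from -0.054 to 0.12, below 0 without shControl replicate 2; the cause was not tested. CCL3 ran from -6.28 (limma-voom) to -2.56 (pseudocount of 4), LTB from -3.54 to -1.42 and TNFSF12 from -1.06 to -0.41 at the same ends, and all 3 kept their calls.

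With the longest annotated transcript as length, the subunit shares in shControl and shMMP9 were 11.8 and 16.4% for NFKB1, 49.6 and 43.9% for NFKB2, 0.869 and 1.21% for REL, 23.0 and 24.5% for RELA and 14.7 and 14.0% for RELB. With the replicate block, 3 members rose and 5 fell, 25 pathway genes rose and 56 fell, and 4211 of all genes rose and 5486 fell. Same-numbered libraries did not deviate together (correlations of 0.11, -0.24 and 0.01 across genes), so the numbers are not taken to pair samples.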
